A study of Homo sapiens with 24 samples.

Results

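10 genes of the Fc receptor and Fc receptor-like families were examined for super-enhancers in OCI-Ly7 cells: FCRL1, FCRL2, FCRL3, FCRL4, FCRL5, FCRLA, FCRLB, FCGR2B, FCER2 and FCMR. A gene was linked to a super-enhancer when a region of the deposited table overlapped its GENCODE version 44 gene body extended by 50 kb on each side. By this rule 7 of the 10 genes were linked to 4 of the 2615 super-enhancers, and FCRL3, FCRL4 and FCER2 were linked to none. OCI-Ly7 is an established human GCB-DLBCL line, a lymphoma related to germinal center B cells. CUT&RUN, which cuts out and sequences the DNA around an antibody bound to chromatin, was performed in 24 samples, 2 for each of 3 marks and 4 genotypes, from isogenic CRISPR clones seeded as single cells. The table holds a single signal column, in which the H3K27ac libraries (2 samples) of the CRISPR non-edited control clones (WT) were combined. No value below therefore carries a replicate error or a test, and the changes in the CREBBP R1446C, KMT2D knockout and double mutant cells were not analysed here.

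Fc receptors bind the constant part of immunoglobulins, and on B cells most of them adjust the strength of B-cell receptor signalling. FCGR2B is the inhibitory receptor for IgG, FCER2 (CD23) the low-affinity receptor for IgE, and FCMR the receptor for IgM. FCRL1 to FCRL5 are surface relatives of these receptors on B cells, most of them with inhibitory tyrosine motifs in the tail, whereas FCRLA and FCRLB stay inside the cell. Acetylation of H3K27 is found at enhancers and promoters in use, and dense groups of such enhancers are called super-enhancers. The ROSE program that ranked these regions set aside peaks close to a transcription start site (TSS), joined the remaining peaks (constituents) that lay within 12.5 kb of each other, and summed the signal over each joined region. The signal has no stated unit and is used as a relative value within the table, where the cutoff for a super-enhancer was 10617.

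The outer ends of the 4 regions are shown because a joined region begins and ends at a constituent, and the positions of the inner constituents are not in the table. Lengths of single constituents are not given, but their sum was a multiple of 401 bp in each of the 4 regions. The first and last 401 bp of each region were therefore taken to lie in its outermost constituents. Below are the 121 bases around the centre of 7 of these 8 windows, from the plus strand of hg38, with matches to the motifs described further on in capitals. The eighth window lay in untranslated sequence of FCMR and IL24 and is not shown.
FCRL5 region, first window, chr1:157470421-157470541: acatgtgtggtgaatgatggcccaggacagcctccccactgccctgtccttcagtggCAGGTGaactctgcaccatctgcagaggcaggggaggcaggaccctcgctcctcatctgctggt
FCRL5 region, last window, chr1:157511218-157511338: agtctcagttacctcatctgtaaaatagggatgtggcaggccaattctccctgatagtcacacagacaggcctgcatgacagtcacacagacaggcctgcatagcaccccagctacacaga
FCRL1 and FCRL2 region, first window, in an intron of FCRL2, chr1:157762269-157762389: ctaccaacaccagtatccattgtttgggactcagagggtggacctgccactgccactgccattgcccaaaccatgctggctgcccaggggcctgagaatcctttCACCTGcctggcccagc
FCRL1 and FCRL2 region, last window, in FCRL1, chr1:157806880-157807000: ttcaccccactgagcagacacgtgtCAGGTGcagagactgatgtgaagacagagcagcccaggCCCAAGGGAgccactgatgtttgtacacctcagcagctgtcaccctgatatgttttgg
FCRLB region, first window, chr1:161715699-161715819: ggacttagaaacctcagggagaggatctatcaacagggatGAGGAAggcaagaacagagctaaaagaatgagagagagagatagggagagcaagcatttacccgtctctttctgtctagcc
FCRLB region, last window, chr1:161739153-161739273: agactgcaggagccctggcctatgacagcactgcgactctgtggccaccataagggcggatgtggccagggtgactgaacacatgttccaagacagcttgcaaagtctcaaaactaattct
FCMR region, last window, in an intron of PIGR, chr1:206933476-206933596: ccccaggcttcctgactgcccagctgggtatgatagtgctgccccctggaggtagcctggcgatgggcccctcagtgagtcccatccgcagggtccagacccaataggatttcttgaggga

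**Figure D1:**
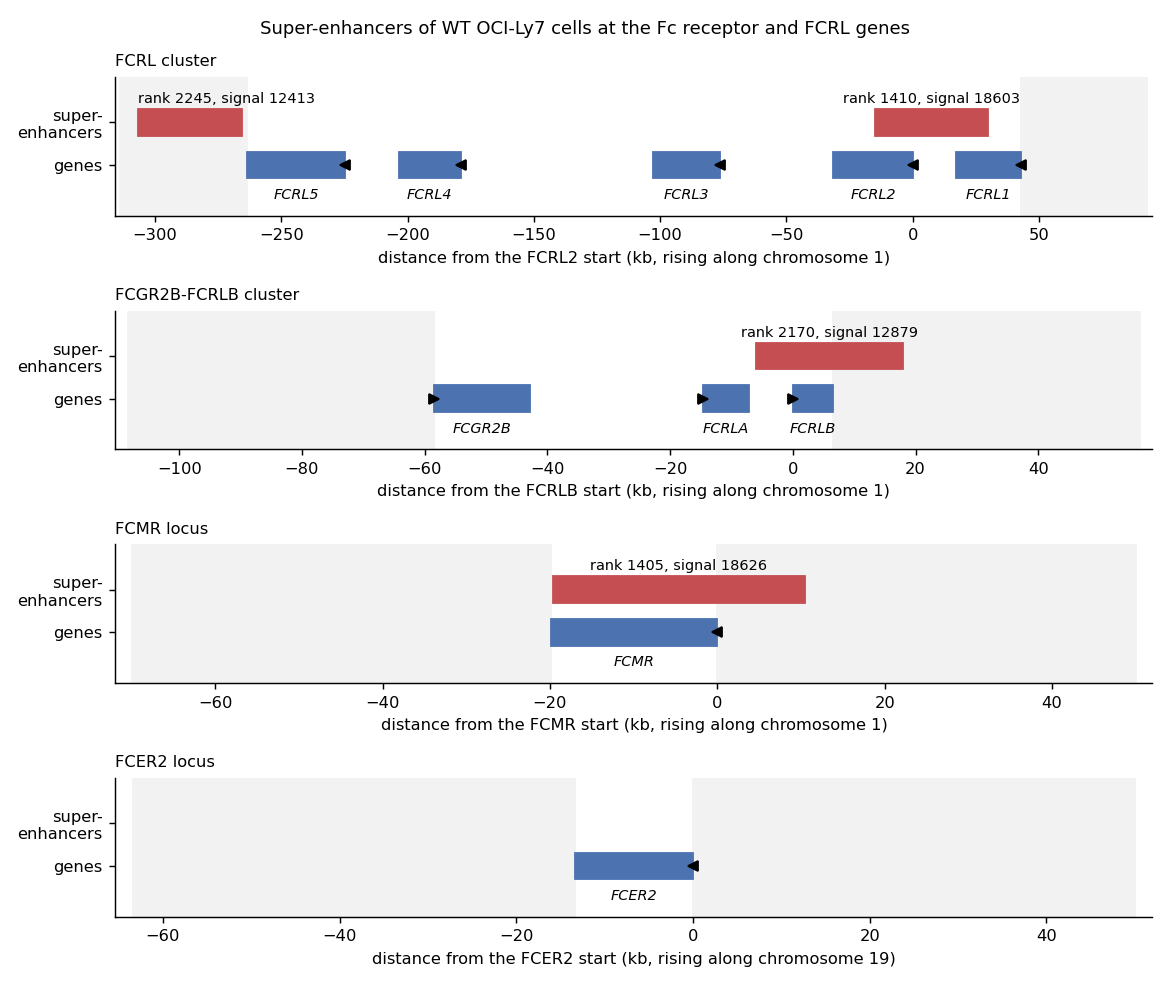
Position of the 10 genes (blue, with a black arrowhead at the start site that points along transcription) and of the super-enhancers (red) at the 4 loci. The x axes give the distance in kb from the start of 1 gene per locus, the grey zones are the 50 kb added on each side, and the 3 loci on chromosome 1 hold the 4 regions while the FCER2 locus holds none.

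The super-enhancers sat over or beside 3 of the 5 genes of the FCRL cluster, FCRLA, FCRLB and FCMR. FCGR2B was linked at a distance, with its body 36.9 kb from a region. The count of 7 of 10 (70%) compares with 6140 of 19970 protein-coding genes (30.7%) that met the same rule. A region overlapped the gene body itself for FCRL1, FCRL2, FCRLB and FCMR, 4 of 10 genes against 17.3% of all protein-coding genes. The TSS lay inside a region for FCRL2, FCRLB and FCMR, 3 of 10 genes against 7.81%. Neighbours share regions, so these genes are not independent of each other. The genes nearest to the 50 kb limit were FCGR2B, whose body ended 36.9 kb from a region, and FCRL3 and FCRL4, at 61.4 kb and 62.3 kb.

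The FCRL cluster spans 307 kb of chromosome 1, from FCRL5 to FCRL1, and all 5 genes are read on the minus strand. The span itself held 1 super-enhancer, at its FCRL1 end, which filled 14.7% of it. Another lay just outside the span, past FCRL5, and 251 kb separated the 2 regions. With 50 kb added on each side, 21.2% of the cluster lay in super-enhancers, against 7.36% of chromosome 1 and 6.42% of the 23 chromosomes.

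The stronger region of the cluster joined FCRL2 and FCRL1. It lay at chr1:157762129-157807140 with a signal of 18603 (rank 1410), 1.75 times the cutoff, over 45.0 kb and 9 constituents. It covered the FCRL2 TSS, the first 15.0 kb of FCRL2 (chr1:157745733-157777132), the 17.3 kb between the genes and the 12.7 kb of FCRL1 (chr1:157794403-157820120) that hold its 3′ part. In the MANE Select transcripts it took in exons 1 to 7 of the 12 of FCRL2 and exons 2 to 11 of the 11 of FCRL1, and 44.7% of its bases were intronic, 17.0% exonic and 38.4% outside coding genes. The FCRL1 TSS itself lay 13.0 kb outside the region. FCRL1 is the member of the family known for an activating type of tail, and FCRL2 carries inhibitory motifs. CD5L, which encodes a secreted macrophage protein, was the only other coding gene within 50 kb of this region.

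The weaker region lay past the 3′ end of FCRL5, which encodes a receptor for IgG (chr1:157513377-157552515). It spanned chr1:157470281-157511478, 41.2 kb, with the same number of constituents (9) and a signal of 12413 (rank 2245), 1.17 times the cutoff. It began 1.899 kb from the end of FCRL5 and lay wholly outside coding genes, 41.0 kb from the FCRL5 TSS, and no other coding gene was within 50 kb. The signal of the FCRL1 and FCRL2 region was 1.499 times that of the FCRL5 region, and its signal per bp (0.413 against 0.301) was 1.37 times as high. Without values for single libraries these ratios have no error.

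The 2 genes in the middle of the cluster had no region by the rule. FCRL4, a receptor of memory B cells in mucosal tissue (chr1:157573747-157598085), had its TSS 86.6 kb from the nearest edge, which was that of the FCRL5 region. FCRL3 (chr1:157674321-157700769), also a receptor with inhibitory motifs, had its TSS 61.4 kb from the FCRL1 and FCRL2 region. The table holds only regions above the cutoff, so weaker H3K27ac over FCRL3 or FCRL4 could not be seen.

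Promoter sequence of the genes at the stronger FCRL region is shown because their start sites differed in position, that of FCRL2 inside the region and that of FCRL1 outside. The 250 bases before each TSS, from the RefSeq promoter table (GRCh38.p14) and written along the direction of transcription (minus strand), were as follows, with motif matches in capitals. FCRL2 had no match, and FCRL1 had a PU.1 and an IRF match.
FCRL2, chr1:157777133-157777382: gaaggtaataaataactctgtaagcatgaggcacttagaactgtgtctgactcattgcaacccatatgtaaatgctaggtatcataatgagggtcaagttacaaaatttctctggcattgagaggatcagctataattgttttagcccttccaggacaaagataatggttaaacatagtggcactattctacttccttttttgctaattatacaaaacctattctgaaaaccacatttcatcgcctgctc
FCRL1, chr1:157820121-157820370: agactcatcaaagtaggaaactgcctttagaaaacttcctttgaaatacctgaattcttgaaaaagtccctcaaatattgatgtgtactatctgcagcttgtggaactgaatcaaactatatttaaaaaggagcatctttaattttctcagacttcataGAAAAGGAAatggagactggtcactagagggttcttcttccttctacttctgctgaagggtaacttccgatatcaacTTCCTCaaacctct

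The second cluster holds FCGR2B, FCRLA and FCRLB over 65.0 kb of chromosome 1, all on the plus strand. They shared 1 super-enhancer at chr1:161715559-161739413, with a signal of 12879 (rank 2170), 1.21 times the cutoff, over 23.9 kb and 5 constituents. It covered the whole of FCRLB (chr1:161721544-161728143), including its TSS and all 8 exons of its MANE Select transcript. It began 1.21 kb past the end of FCRLA (chr1:161706972-161714352), whose TSS was 8.59 kb away. The body of FCGR2B (chr1:161663143-161678654) was farther, with its end 36.9 kb and its TSS 52.4 kb from the region. DUSP12, a phosphatase gene, and ATF6, a factor of the unfolded protein response, were also within 50 kb, so 5 coding genes in all share the region. Of its bases, 16.7% were intronic, 10.95% exonic and 72.3% outside coding genes. With 50 kb on each side, 14.5% of this cluster lay in super-enhancers.

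Sequence of FCGR2B is more often repeated than that of its neighbours, so short reads over it are harder to place. Words of 31 bases (31-mers) with another exact copy in hg38 made up 71.4% of the FCGR2B gene body, against 2.23% of FCRLA and 5.80% of FCRLB, and between 5.04% and 16.8% of the other 7 genes. Most of the copies lay in FCGR2C, an activating receptor gene, which held 69.6% of the FCGR2B words. In the other direction, 44.4% of the FCGR2C words stood in FCGR2B and 33.7% in FCGR2A. With words of 100 bases the repeated share of FCGR2B was still 53.5%, and those of the other 9 genes were at most 1.93%. These are shares of words and not of reads: words as long as the study's reads, and read pairs, were not examined. The shared super-enhancer lay outside the duplicated part: 8.49% of its 31-mers were repeated. In 31-mers sampled evenly along every region this super-enhancer had 7.5%, and the median of the table was 13.5%. How reads with several possible positions were treated is not given in the sources used here, and the effect on the signal at FCGR2B was not tested.

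The start of FCGR2B shows the duplication at the level of bases. The RefSeq window from 250 bases before to 50 bases after the TSS, at chr1:161662893-161663192, was identical in 300 of 300 bases to chr1:161581089-161581388, at the start of FCGR2C. The 250 bases before the TSS (plus strand) were as follows, with 2 PU.1 matches and 1 IRF match in capitals, and the same letters stand before FCGR2C. FCRLB is shown beside it, as the gene of this cluster whose TSS lay inside the region, with an octamer match in capitals. Further RefSeq windows of both genes are not shown. For FCRLB, chr1:161722007-161722306 had 2 PU.1 matches and chr1:161722403-161722702 had none, both inside the region. For FCGR2B, chr1:161646993-161647292 had none and was identical in 298 of 300 bases to the FCGR2C side.
FCGR2B, chr1:161662893-161663142: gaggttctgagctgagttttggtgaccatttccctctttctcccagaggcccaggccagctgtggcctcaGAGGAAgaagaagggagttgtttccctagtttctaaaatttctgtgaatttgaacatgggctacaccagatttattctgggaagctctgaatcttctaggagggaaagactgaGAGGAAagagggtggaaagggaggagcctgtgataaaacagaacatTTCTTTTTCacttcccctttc
FCRLB, chr1:161721294-161721543: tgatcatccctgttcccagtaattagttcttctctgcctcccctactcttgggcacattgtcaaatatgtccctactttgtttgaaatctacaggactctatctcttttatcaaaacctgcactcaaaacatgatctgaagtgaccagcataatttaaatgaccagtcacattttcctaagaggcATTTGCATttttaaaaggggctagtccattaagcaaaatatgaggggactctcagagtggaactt

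**Figure D2:**
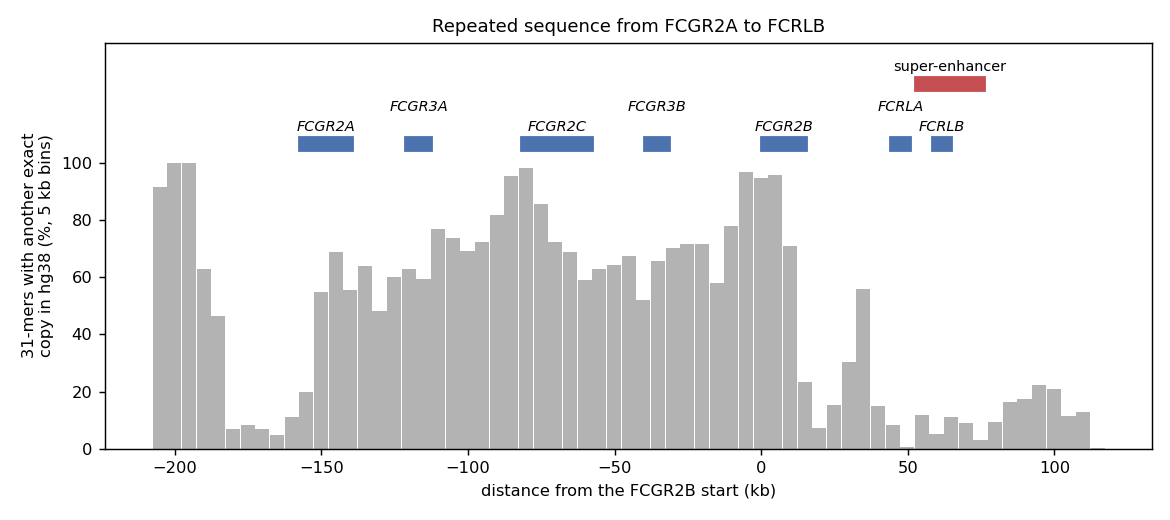
Share of 31-mers with another exact copy in hg38 (y axis, percent, 5 kb bins) by distance from the FCGR2B start in kb, with gene bodies in blue and the super-enhancer in red above the bars. Most bars are high from FCGR2A to FCGR2B (71.4% over the FCGR2B body), but the bin at the start of FCGR2A has 19.9%. Bars are low over FCRLA, FCRLB and the super-enhancer (8.49%). High bars also stand left of FCGR2A (100% at -200.2 kb), and a bin of 56.0% lies between FCGR2B and FCRLA.

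FCMR had the region with the highest signal of the 4, by a margin of 23 over the FCRL1 and FCRL2 region. It lay at chr1:206903557-206933736 with a signal of 18626 (rank 1405), 1.75 times the cutoff, over 30.2 kb and 10 constituents. It covered 98.8% of the FCMR gene (chr1:206903317-206923247), with its TSS and all 8 exons of the MANE Select transcript. It also reached over the last exon of IL24, a cytokine gene, and over exons 7 to 11 of PIGR, the receptor that carries IgA and IgM across epithelia. Of its bases 63.8% were intronic, 18.7% exonic and 17.5% outside coding genes. IL20 and FCAMR, a receptor for IgA and IgM, were within 50 kb too. The next regions were 162 kb to the left and 4399 kb to the right, and 25.2% of the locus with 50 kb on each side was in the region. Another RefSeq window of FCMR, at chr1:206921892-206922191, had 3 PU.1 matches and is not shown. Of the 250 bases before the FCMR TSS at the window below, the 199 farthest from it (minus strand) are shown, since the rest is transcribed in GENCODE. A PU.1 and an E2A match are in capitals.
FCMR, chr1:206923248-206923446: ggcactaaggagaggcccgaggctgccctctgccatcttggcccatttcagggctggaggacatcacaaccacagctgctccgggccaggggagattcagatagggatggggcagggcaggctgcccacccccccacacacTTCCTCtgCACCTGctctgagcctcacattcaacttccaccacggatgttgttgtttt

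FCER2 was the gene farthest from any region. It lies on chromosome 19 at chr19:7688758-7702146, and the nearest super-enhancer was 207 kb from its body and 220 kb from its TSS. That region was rank 39, so a strong region was the neighbour. For all protein-coding genes the median distance from the TSS to a region was 208 kb, and 49.0% were farther than FCER2. For the 10 genes the median was 27.01 kb. FCER2 had 3 regions within 500 kb of its TSS, against a median of 1 for all protein-coding genes.

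**Figure D3:**
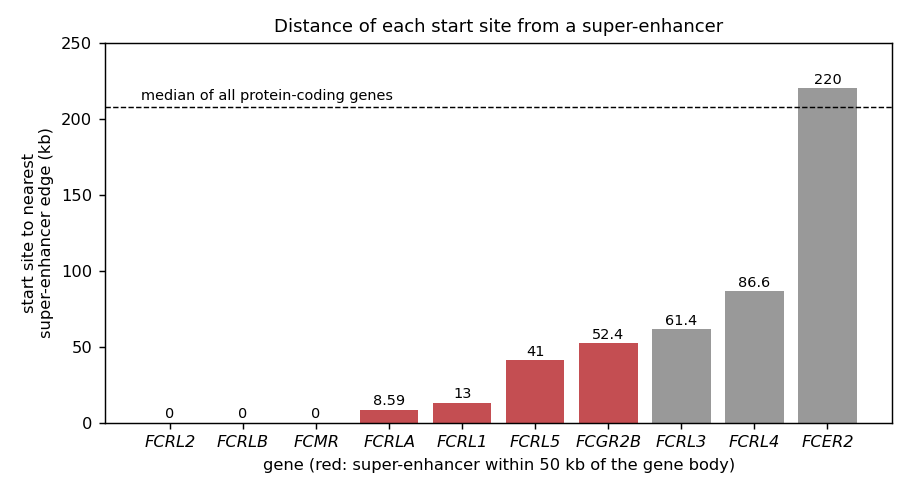
Distance in kb from the TSS of each gene to the nearest super-enhancer edge, with genes that met the 50 kb rule in red and the median of all protein-coding genes (208 kb) as a dashed line. FCRL2, FCRLB and FCMR sit at 0, and FCER2 (220 kb) is the only gene above the line.

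The 4 regions were modest in summed signal and small in extent. Their signals ran from 12413 to 18626, a range of 1.501 times, all below the table's median of 19740. The share of regions with a lower signal was 46.3% for FCMR, 46.1% for FCRL1 and FCRL2, 17.0% for FCRLB and 14.2% for FCRL5. All 4 were shorter than the median of 60.7 kb and had fewer constituents than the median of 16.

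**Figure D4:**
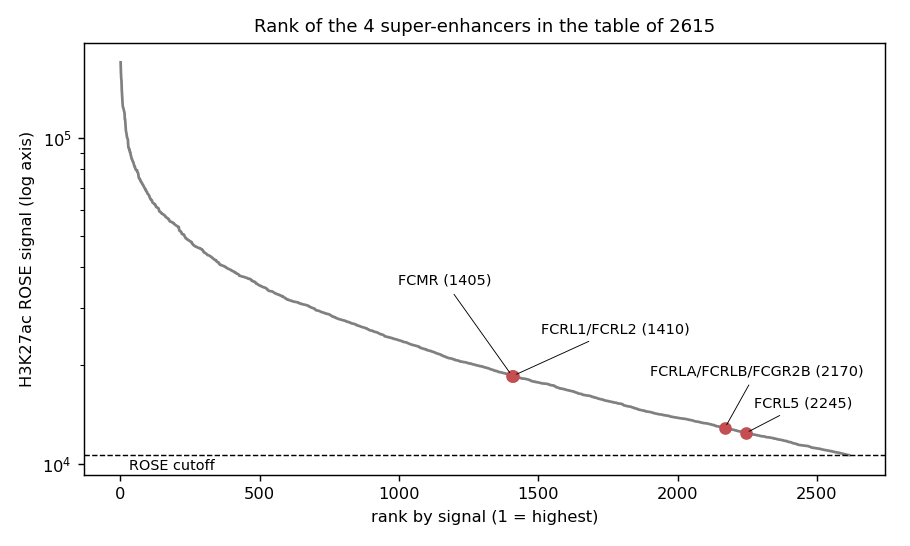
Signal of all 2615 super-enhancers (log axis) by rank, with the 4 regions as red points and the ROSE cutoff of 10617 as a dashed line. FCMR and the FCRL1 and FCRL2 region sit side by side near the middle, and the FCRLB and FCRL5 regions lie at ranks 2170 and 2245, close to the cutoff.

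Per base the order was different. FCMR had a signal per bp of 0.617, above 82.8% of the table, and FCRLB one of 0.540, above 77.9%. FCRL1 and FCRL2 followed with 0.413 (63.8%), and FCRL5 was below the table's median of 0.343 with 0.301 (40.1%). The FCMR, FCRLB and FCRL1 and FCRL2 regions hold a coding TSS, and the FCRL5 region holds none. Signal at promoters was not separated from the rest, and its part in this order was not tested. Divided by the length of the constituents alone, the FCRL1 and FCRL2 region came first with 5.16 per bp, and all 4 were above the table's median of 3.03. The signal was summed over the whole joined region, so this ratio also depends on the share of the region that constituents fill. That share was 8.02% in the FCRL1 and FCRL2 region and 8.76% in the FCRL5 region, below the table's median of 11.2%. It was 11.8% in the FCRLB region and 14.6% in the FCMR region. To pass the cutoff a shorter region needed a higher signal per bp, so the standing per bp and the length are not separate measurements. GC content ran from 40.4% in the FCRL1 and FCRL2 region to 49.1% in the FCMR region, on both sides of the median of 45.7%.

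**Figure D5:**
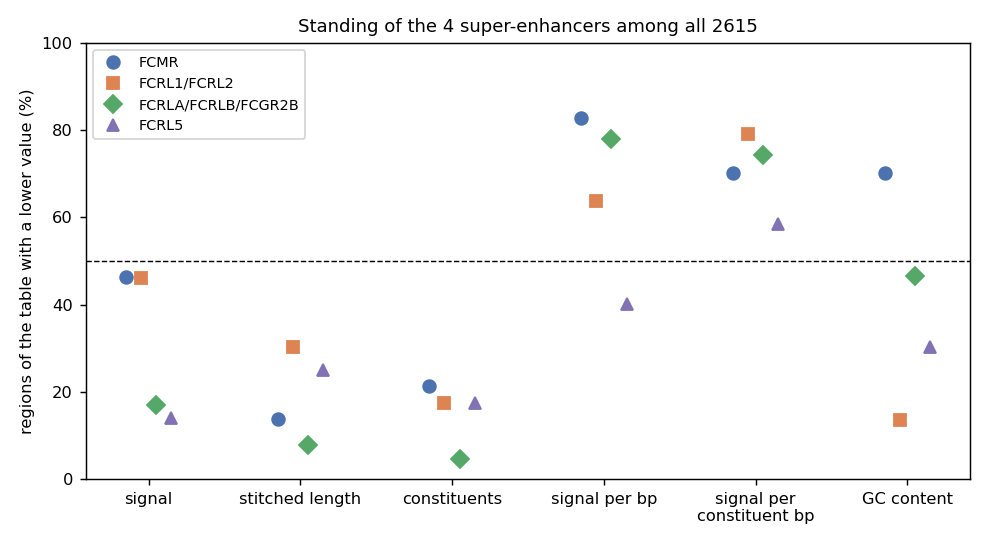
Standing of the 4 regions among all 2615, as the percent of regions with a lower value (y axis) for 6 measures (x axis); the dashed line is the middle of the table. All 4 lie below it for signal, length and constituents, 3 of 4 lie above it for signal per bp, and all 4 for signal per constituent bp.

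Motifs of B-cell transcription factors were searched on both strands in the outermost windows and the promoters. They were PU.1 (GAGGAA), E2A (CAGGTG), octamer (ATGCAAAT), EBF (CCCNNGGGA), IRF (GAAANNGAA), NF-kB (GGGACTTTC and GGGAATTTC), BCL6 (TTCCTAGAA, the reverse complement of the other spelling searched, TTCTAGGAA) and MEF2 (TATTTATAG). E2A letters stood in 5 of the 8 windows, against 42.5% of the 5229 outermost windows of the table. EBF letters stood in 2 of 8 (8.59% of all windows), and PU.1, IRF and octamer letters in 1 of 8 each (34.2%, 12.0% and 2.43%). No window held the NF-kB, BCL6 or MEF2 letters, each found in under 0.5% of all windows. The last FCRL5 window held none of the motifs, and the last FCRL1 and FCRL2 window held 3 (E2A, EBF and IRF). In the 15 RefSeq promoter windows of the 10 genes, PU.1 letters stood in 7 (27.8% of 35116 promoters) and IRF letters in 4 (8.11%). E2A letters stood in 1 of the 15 (20.6%), octamer letters in 1 (1.77%), and EBF letters in none (8.87% of all promoters). Some of these windows belong to 1 gene, so they are not independent. Such matches are descriptions of letters, and overlapping matches were all counted.

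Other Fc receptor genes were counted by the same rule. Of 13, including the receptors of myeloid and NK cells, 2 (15.4%) had a region, against 30.7% of all protein-coding genes. Both, PIGR and FCAMR, had it through the FCMR region. FCGR1A, FCGR2A, FCGR2C, FCGR3A, FCGR3B, FCER1A, FCER1G, FCGRT, FCAR, FCRL6 and MS4A2 had none. FCGR2A, named after its value was seen, came nearest with 64.7 kb to a region. FCGR2A, FCGR2C, FCGR3A and FCGR3B had between 49.2% and 75.4% repeated 31-mers.

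Of 12 genes that act with these receptors, 7 (58.3%) had a region, against 30.7% of all protein-coding genes. These were the kinases LYN and SYK, the phosphatases PTPN11 and INPP5D, the adaptors BLNK and GRB2, and CD72, an inhibitory receptor. A region overlapped the gene body of the same 7 of the 12, against 17.3% of all protein-coding genes. Chosen after its value was seen, SYK had the strongest of these regions, rank 38 with a signal of 88113, which covered the whole gene. BTK, PTPN6, CR2, CD22 and the CD23 sheddase ADAM10 had none. The SLAM family, another receptor cluster of chromosome 1 band q23, had regions for 8 of 9 genes (30.7% of all protein-coding genes). Neighbours shared regions here too, and a region overlapped the gene body of 3 of the 9. The strongest, looked up after the values were seen, was at rank 204 (signal 53444) over SLAMF1. As a check of the cell type, 4 of 5 B-cell and 3 of 3 germinal center markers had a region, against 0 of 7 markers of T, myeloid and NK cells. CD22 was the B-cell marker without one, and 30.7% of all protein-coding genes had one.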

How the data were processed

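H3K27ac, H3K4me1 and H3K4me3 CUT&RUN was done in 24 samples (12 groups of 2). By the study's methods, the authors used nf-core cutandrun (hg38, IgG controls), with promoter reads as the measure of depth. SEACR gave the peaks and MACS2 the summits. Super-enhancers were found by ROSE from the WT H3K27ac data, with non-coding RNA start sites removed and peaks within 2500 bp of a TSS left out. The submitters' processing notes also name DiffBind 3.6.1. The deposited signal is the ROSE signal per region of 1 pooled WT column, above the cutoff of 10617 in the header; the depth behind it is not in the table, so no counting interval was computed. The other deposited columns used hold the number of constituents, their summed length and the rank.

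Coordinates were read as 1-based with both ends included: counted so, the region made of 1 constituent had its constituent length of 401 bp. Constituent length was a multiple of 401 bp in 2609 of 2615 regions. Signal per bp is signal over end minus start. Genes came from GENCODE version 44 (19970 protein-coding genes on 23 chromosomes), all 10 members matched. Exact copies of 31-mers, 50-mers and 100-mers were counted on both strands of 24 chromosomes, and at 200 even positions in each table region. Promoters were RefSeq windows of 300 bases on GRCh38.p14. Interval and copy counting were tested on simulated data, and the motif search only on a short made-up sequence with the PU.1 letters. No test across samples was possible with 1 pooled column. The members and lists were chosen with earlier results of these data known, and the search of outermost windows was added after the table was seen. All members are named, and other genes where they share a member region or belong to a list of related genes; those picked after their values were seen are marked. 1 gene of the planned lists is not reported here. A planned search of receptor proteins was not run, as no protein table was used here. Software was Python 3.11.15 with pandas 2.3.3, pysam 0.24.0, numba 0.67.0, numpy 2.4.6, matplotlib 3.10.9 and scipy 1.17.1.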

Additional observations from a re-analysis of the deposited data

How the results depend on the processing

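The number of the 10 genes with a super-enhancer was 7 as reported, 6 with extensions of 10 kb or 25 kb or with 50 kb around the TSS alone, and 9 with 100 kb, where FCRL3 and FCRL4 were added. Of all protein-coding genes 20.8% had a region with 10 kb, 25.05% with 25 kb and 39.7% with 100 kb. The count fell to 4 with no extension (17.3% of all) and to 0 among the 1307 regions with the highest signal, where the number of regions was also 0, because all 4 regions rank below them. It stayed at 7 among regions more than 5% above the cutoff. The share of all protein-coding genes is not given for 50 kb around the TSS, for the 1307 regions or for the 5% margin. Those counts therefore have no comparison beside them. The median percentile of the 4 regions was 31.6 by signal, 70.9 by signal per bp and 72.2 by signal per constituent bp; with no extension, which leaves out the FCRL5 region, it was 46.1 by signal. The cover by super-enhancers without extension and with 100 kb was 14.7% and 17.0% for the FCRL cluster, 19.4% and 9.002% for the FCGR2B to FCRLB cluster, and 98.8% and 13.7% for the FCMR locus. Of the 13 other Fc receptor genes 1 had a region with no extension and 6 with 100 kb, beside the same shares of all genes (17.3% and 39.7%). Repeated shares were lower with longer words for all 10 genes. Neither replicates nor a control column were given, so the spread behind any rank is unknown. No paired analysis was possible because both WT libraries were merged before ranking.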

Other observations

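The summed constituent length of the FCRLB region equalled 7 windows of 401 bp although 5 constituents were listed, and that of the FCMR region 11 windows for 10 constituents. In the FCRL1 and FCRL2 region and in the FCRL5 region both numbers were 9. Over the table, the length held more windows than constituents in 1207 of 1702 regions (70.9%) with the start of a coding transcript inside, and in 97 of 913 (10.6%) without one. The FCRL5 region has no coding start inside, and the FCRL1 and FCRL2 region has one without extra windows. The cause was not tested.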
